A study of Saccharomyces cerevisiae with 23 samples.

Results

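The genes described here encode proteins of the yeast mitochondrial ribosome. They are all genes on the array whose standard symbol is MRPL, MRPS or RSM with a number, or MRP with a number, and 67 genes met this rule. MRPL7 lies within a stretch of chromosome IV (YDR211W to YDR261C) that was left out, so 66 genes of 6129 tested remained. Of these, 37 encode proteins of the large subunit and 28 encode proteins of the small subunit. The remaining gene, MRP8, carries the name but encodes a protein of unknown function that is not held to be ribosomal. Each gene has 1 probe, printed in 2 spots.

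The mitochondrial ribosome translates the few messages of the mitochondrial genome, nearly all of which encode core subunits of the respiratory chain and of the ATP synthase. Its RNAs are made in the organelle, whereas nearly all of its proteins are encoded in the nucleus, made in the cytosol and imported. Some have counterparts in the bacterial ribosome, and others are found only in mitochondrial ribosomes. By this division 40 of the 66 genes are of bacterial type and 25 are specific to mitochondria, with MRP8 in neither class.

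Total RNA came from haploid BY4741-derived cells that expressed Tup1K270R together with Cyc84KtoR (CYC8 with K735R, K736R, K738R and K748R), Tup1K270R alone, Cyc84KtoR alone, or wild-type Tup1 and Cyc8 (WT). Tup1 and Cyc8 form a corepressor of transcription, and the substitutions replace lysines to which SUMO is attached. All strains, WT included, carried a 6His-FLAG tag on the chromosomal SMT3 gene (which encodes SUMO) and had TUP1 and CYC8 deleted and put back as a WT or mutant copy under its own promoter, with URA3 and LEU2 as markers. Cells were grown in yeast complete medium and collected before (0 min) and at 30 and 60 min of hyperosmotic stress in 1.2 M sorbitol, in replicates A and B from isolates of independent transformations. On each of 22 arrays, 1 sample was set against the unstressed WT cells of its own replicate. One further array, wt x wt, set unstressed WT replicate B against replicate A.

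The arrays measure bulk RNA, in which fewer cells with a transcript and less transcript per cell cannot be told apart. Values are log2 ratios of a sample over unstressed WT, so 1 unit is a change of 2-fold and a positive value means more transcript in the sample. There are 11 groups of 2 arrays, and so few arrays limit the precision of all values. Replicate A samples carried Cy3 and replicate B samples carried Cy5, so dye and replicate cannot be told apart. All 66 probes were well above background on all 23 arrays. On the wt x wt array the 66 ratios ranged from −0.41 to 0.22 with an SD of 0.13, and 0 of them passed the cutoff of 0.65 log2 units that the methods set for a change. The CYC8 and TUP1 transcripts themselves differed between isolates. CYC8 was at −1.26 on the wt x wt array. At 0 min its ratios in replicates A and B were −1.17 and 1.33 in Tup1K270R cells and 0.91 and 0.94 in Cyc84KtoR cells. They were 0.325 and 1.44 in Tup1K270R/Cyc84KtoR cells. TUP1 had 1.20 and 0.65, −0.09 and 1.05, and 0.01 and 0.12 in these strains in turn at 0 min. The stress itself was visible on all arrays of stressed cells, where 15 of 15 osmotic stress genes, among them the glycerol enzyme genes GPD1 and GPP2, were above 0. The labels disagree with each other on 3 replicate B arrays of the Tup1K270R/Cyc84KtoR strain, and the titles were followed.

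At 30 min of stress these transcripts changed in both directions in WT cells, with a smaller spread than over all probes. Of the 66 genes, 27 were lower than in unstressed cells and 16 were higher (limma, Benjamini-Hochberg adjusted p under 0.05 over all 6129 probes). These are 40.9% and 24.2% of the genes, beside 32.7% of all probes called lower and 34.7% called higher. The median over the 66 genes was −0.10, beside −0.002 over all probes. It was −0.03 in replicate A and −0.09 in replicate B, so there was little shift of the group as a whole. The mean passed the cutoff of 0.65 log2 units downward for 13 genes (14.8% of all probes did so) and upward for 5 (17.9% of all probes). With the replicate as a block, 29 genes were lower and 19 higher (37.5% and 38.9% of all probes in that fit). On the deposited log ratios, which the scanner software had corrected in another way, 16 were lower and 5 higher (1202 and 1117 of 6201 probes). There, RSM24 (adjusted p = 0.0543) and MRPL36 (adjusted p = 0.362) were no longer called.

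**Figure D1:**
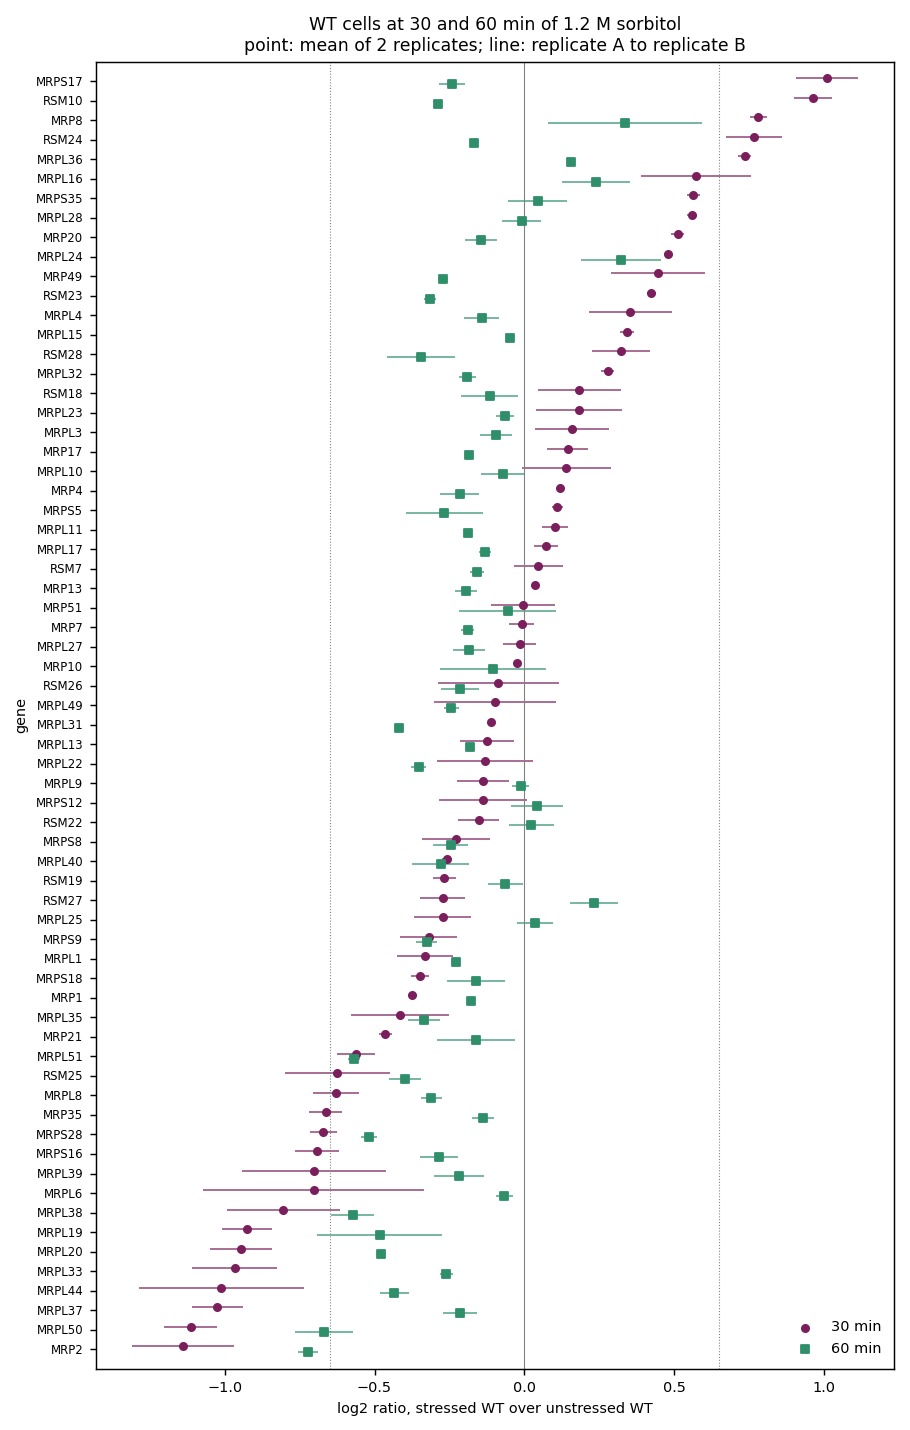
Log2 ratio of stressed over unstressed WT cells (x axis) for each of the 66 genes (y axis), ordered by the ratio at 30 min. Circles are 30 min and squares 60 min, each the mean of 2 replicates with a line joining them, and dotted lines mark 0.65 log2 units. At 30 min the means run from −1.14 (MRP2) to 1.01 (MRPS17), and at 60 min from −0.72 (MRP2) to 0.34 (MRP8).

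The 2 highest ratios at 30 min belonged to genes of the small subunit, and RSM24 of the same subunit followed after MRP8. MRPS17, the counterpart of bacterial S17, had ratios of 0.91 and 1.11 in stressed WT cells of replicates A and B, a rise to 2.01-fold of the unstressed level (log2 1.01 ± 0.12 SE, adjusted p = 4.9e-06). RSM10, the counterpart of bacterial S10, had 0.90 and 1.03 (mean 0.96 ± 0.11 SE, adjusted p = 3.34e-06). RSM24, a small subunit protein specific to mitochondria, had 0.86 and 0.67 (mean 0.77, adjusted p = 4.02e-07). Both replicates of each of these genes lay above the highest of the 66 ratios on the wt x wt array.

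The other genes among the first 5 were MRP8 and a gene of the large subunit. MRP8 had ratios of 0.75 and 0.81 at 30 min (mean 0.78 ± 0.14 SE, adjusted p = 0.000152). MRPL36, the counterpart of bacterial L31, had 0.71 and 0.76 (mean 0.74 ± 0.09 SE, adjusted p = 8.41e-06). The remaining 11 genes that rose had means between 0.28 (MRPL32, whose protein is matured by a protease before assembly) and 0.57 (MRPL16). They include MRP20 and MRPL4 of the polypeptide exit and RSM23, the relative of human DAP3.

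The lowest ratio was also that of a small subunit gene, MRP2, the counterpart of bacterial S14. It had −1.31 and −0.97 in stressed WT cells of replicates A and B, a fall to 0.454-fold of the unstressed level (log2 −1.14 ± 0.09 SE, adjusted p = 5.6e-08). MRPL50, the counterpart of bacterial L9, had −1.20 and −1.02 (mean −1.11 ± 0.07 SE, adjusted p = 1.23e-08). In linear terms MRPL50 was at 0.462-fold of its unstressed level.

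MRPL37, specific to mitochondria, had −1.11 and −0.94 at 30 min (mean −1.02 ± 0.07 SE, 0.492-fold, adjusted p = 1.58e-08). MRPL44, also specific to mitochondria, had −1.29 and −0.74 (mean −1.01 ± 0.15 SE, adjusted p = 3.28e-05). MRPL33, the counterpart of bacterial L30, had −1.11 and −0.82 (mean −0.97 ± 0.07 SE, adjusted p = 3.5e-08). The order of these 5 lowest genes should not be read closely, since their means differ by less than the gap between replicates of MRP2 or MRPL44.

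Opposite changes occurred within each class of protein, as they did over all probes, of which 32.7% fell and 34.7% rose at 30 min. No class was tested against these shares. Among the 37 large subunit genes, 16 fell and 9 rose at 30 min, with a median of −0.13. Among the 28 small subunit genes, 11 fell and 6 rose, with a median of −0.06. Genes of bacterial type (18 fell and 8 rose of 40, median −0.13) and those specific to mitochondria (9 fell and 7 rose of 25, median −0.09) were likewise split. By symbol, 15 of 33 MRPL genes fell and 7 rose, 5 of 9 MRPS genes fell and 2 rose, 3 of 11 RSM genes fell and 4 rose, and 4 of 13 MRP genes fell and 3 rose.

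By 60 min the spread was narrower, as it was over all probes, and most of the genes lay slightly below their unstressed level. Of the 66 genes, 57 had a mean below 0 (50% of all probes did), 52 of them in both replicates (40.3% of all probes). The test called 28 genes lower, or 42.4%, beside 22.2% of all probes, and 1 gene higher, or 1.52%, beside 24.1% of all probes. The median was −0.19 in both replicates and over their means, beside a median near 0 over all probes, which is a level of 0.877-fold. Only 2 genes passed the cutoff of 0.65 log2 units downward (5.94% of all probes) and 0 passed it upward (8.37%). The counts depend on the fit, and so does their excess over all probes. With the replicate as a block 40 genes were lower (60.6%, beside 29.6% of all probes in that fit) and 4 higher (6.06%, beside 30.5%). Without replicate A 13 were lower (19.7%, beside 12.7%) and 0 higher, and without replicate B 12 were lower (18.2%, beside 14.9%) and 2 higher. On the deposited log ratios 5 were lower (7.58%, beside 5.39%) and 0 higher, and with the 30 and 60 min arrays of Tup1K270R/Cyc84KtoR replicate B exchanged 13 were lower (19.7%, beside 12.3%). That exchange moves no WT array. The share of lower genes thus stood close to that of all probes without replicate B and on the deposited log ratios.

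The size of the change at 60 min was small for nearly all genes. The SD of the 66 ratios was 0.25 and 0.20 on the WT arrays of replicates A and B at 60 min, against 0.58 and 0.49 at 30 min and 0.13 on the wt x wt array. Over all probes it was 0.65 and 0.63 at 60 min, against 0.86 and 0.90 at 30 min, so that a narrower spread at 60 min was a feature of the whole array. MRP2 remained lowest, with −0.69 and −0.75 at 60 min (mean −0.72 ± 0.09 SE, adjusted p = 1.7e-05). MRPL50 had −0.57 and −0.76 (mean −0.67 ± 0.07 SE, adjusted p = 6.14e-06).

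Next in order at 60 min were MRPL38, the counterpart of bacterial L14, and MRPL51, a protein specific to mitochondria. MRPL38 had −0.65 and −0.50 (mean −0.57 ± 0.11 SE, adjusted p = 0.000776), and MRPL51 had −0.55 and −0.59 (mean −0.57 ± 0.06 SE, adjusted p = 3.89e-06). MRPS28, the counterpart of bacterial S15, had −0.54 and −0.49 (mean −0.52 ± 0.06 SE, adjusted p = 1.42e-05). MRPL51 was at −0.63 and −0.50 at 30 min in replicates A and B, close to its values at 60 min. Lower genes at 60 min came from both subunits, 16 of 37 in the large and 12 of 28 in the small, with medians of −0.19 in each. Over all probes 22.2% were called lower at that time.

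A single gene was called higher at 60 min. MRPL24, the counterpart of bacterial L28, had 0.46 and 0.19 in stressed WT cells of replicates A and B (mean 0.32 ± 0.07 SE, adjusted p = 0.00189), but was not called without replicate A (adjusted p = 0.125). MRP8 had a larger mean of 0.34 from discordant ratios of 0.59 and 0.08 (adjusted p = 0.0572). MRPL16 averaged 0.24, RSM27 0.23 and MRPL36 0.16, and these were not called either. With the replicate as a block, MRP8 (adjusted p = 0.0018), MRPL16 (adjusted p = 0.0067) and RSM27 (adjusted p = 0.00583) joined MRPL24.

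The difference between 60 and 30 min was tested between the group means, both from arrays set against unstressed WT cells. Of the 66 genes, 14 were higher at 60 than at 30 min (21.2%, beside 23.4% of all probes) and 16 were lower (24.2%, beside 25.7%). With the replicate as a block the counts were 17 and 25, beside 28.8% and 33.7% of all probes in that fit. They were 10 and 17 with normexp background correction and 0 and 2 on the deposited log ratios. No share of all probes stands beside these here, so they do not set the genes apart from the whole array. Leaving out either replicate leaves a single array per group, so those fits are not counted here. The counts were 0 and 0 with the 30 and 60 min arrays of Tup1K270R/Cyc84KtoR replicate B exchanged, as their source names have it. In that last fit 0 of all 6129 probes were called in either direction, with 8 and 14 of the 66 genes higher and lower at an unadjusted p under 0.05. The exchange moves no WT array, so it leaves the WT ratios as they were and alters only the residual variance shared by all groups. As titled, the Tup1K270R/Cyc84KtoR replicates correlated over all probes at 0.956 at 30 min and 0.875 at 60 min. The mean passed the cutoff upward for 2 genes (12.9% of all probes) and downward for 7 (15.1%).

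Small subunit genes that were high at 30 min showed the largest differences. RSM10 was at −0.28 and −0.29 at 60 min, against 0.90 and 1.03 at 30 min (difference −1.25 ± 0.16 SE, adjusted p = 2.33e-05). MRPS17 was at −0.28 and −0.20 at 60 min, against 0.91 and 1.11 at 30 min (difference −1.25 ± 0.17 SE, adjusted p = 4.69e-05). For both genes the ratio changed sign between the 2 times in both replicates. The same was true of RSM24 (difference −0.93), RSM23 (−0.74) and MRP49 (−0.72), with adjusted p of 6.29e-06, 0.000174 and 0.000284.

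In the other direction, MRPL37 was at −0.27 and −0.16 at 60 min, against −1.11 and −0.94 at 30 min (difference 0.81 ± 0.10 SE, adjusted p = 1.58e-05). MRPL33 followed with a difference of 0.71 (adjusted p = 6.25e-05) and MRP35, the counterpart of bacterial L35, with 0.52 (adjusted p = 0.00197). MRPL6 (0.64, adjusted p = 0.0371) and MRPL44 (0.58, adjusted p = 0.0349) rested on replicate A. MRPL6 was at −1.07 and −0.33 at 30 min in replicates A and B; without replicate A neither gene was called (adjusted p = 0.557 and 0.354). MRP8 had a difference of −0.44 (adjusted p = 0.0707), which was called with the replicate as a block (adjusted p = 0.00262).

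The spread of the 66 genes was also wider at 30 than at 60 min in the mutant strains. At 30 min the SD of the 66 ratios lay between 0.46 and 0.52 on the 6 mutant arrays (0.86 to 0.97 over all probes), and at 60 min between 0.20 and 0.23 (0.61 to 0.66 over all probes). Each mutant was compared with its own unstressed cells by subtracting its 0 min ratio. At 30 min 23 genes were lower and 13 higher in Tup1K270R/Cyc84KtoR cells (28% and 30.9% of all probes), 22 and 15 in Tup1K270R cells (27.2% and 28.9%), and 27 and 12 in Cyc84KtoR cells (27.4% and 29.9%). At 60 min 11 genes were lower in Tup1K270R/Cyc84KtoR cells (10.6% of all probes), 8 in Tup1K270R cells (12.8%) and 13 in Cyc84KtoR cells (10.3%). None was called higher at 60 min in these 3 mutants in turn (12.5%, 14.4% and 12.8% of all probes). There, 2 (MRP8 and MRPL24), 0 and 0 genes were higher at an unadjusted p under 0.05 (18.6%, 20.4% and 19.3% of all probes). The fit with the replicate as a block called 3, 2 and 1 higher (19.9%, 22.5% and 20.6% of all probes in that fit). That fit called 22, 16 and 22 lower (19.2%, 21.8% and 19.1% of all probes).

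**Figure D2:**
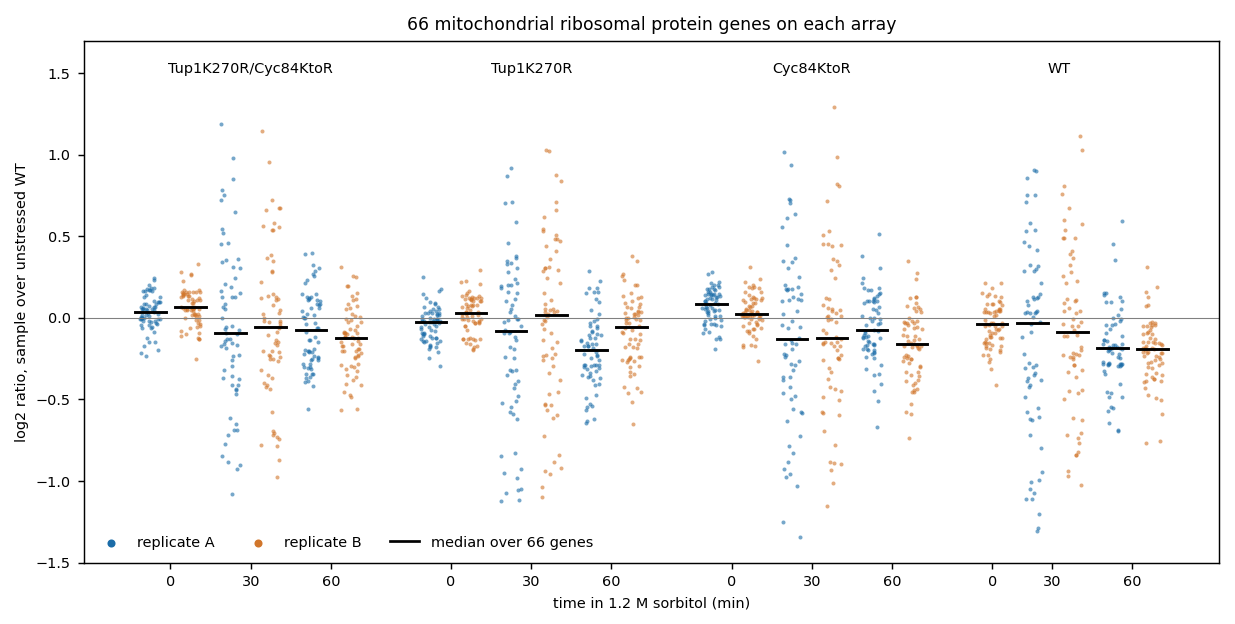
Log2 ratio over unstressed WT cells (y axis) of the 66 genes on each array, by strain and time in sorbitol (x axis). Points are genes, colors are replicates A and B, and bars are medians over the genes. The WT column at 0 min is the wt x wt array (replicate B over replicate A). The points fan out at 30 min in every strain and draw together at 60 min.

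Genes at either end of the range in WT cells lay at the same end in the mutants. At 30 min RSM10 had ratios of 0.85 and 0.68 in Tup1K270R/Cyc84KtoR cells, 0.87 and 1.03 in Tup1K270R cells, 0.64 and 1.30 in Cyc84KtoR cells and 0.90 and 1.03 in WT cells. MRPS17 had 0.98 and 1.15, 0.35 and 1.02, and 0.94 and 0.99 in the same 3 mutants, against 0.91 and 1.11 in WT cells. The single low value is that of Tup1K270R replicate A.

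MRP2 had −0.92 and −0.87 in Tup1K270R/Cyc84KtoR cells at 30 min, −1.05 and −1.04 in Tup1K270R cells, −0.95 and −1.01 in Cyc84KtoR cells, and −1.31 and −0.97 in WT cells. MRPL50 had −0.88 and −0.98, −1.12 and −1.10, and −1.25 and −1.15 in these mutants, against −1.20 and −1.02 in WT cells. Both values of MRPL50 in Tup1K270R/Cyc84KtoR cells were above those of the other strains, and both values in Cyc84KtoR cells were below those in Tup1K270R cells. These strains were all set against the same unstressed WT cultures, so their ratios are not independent of each other.

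**Figure D3:**
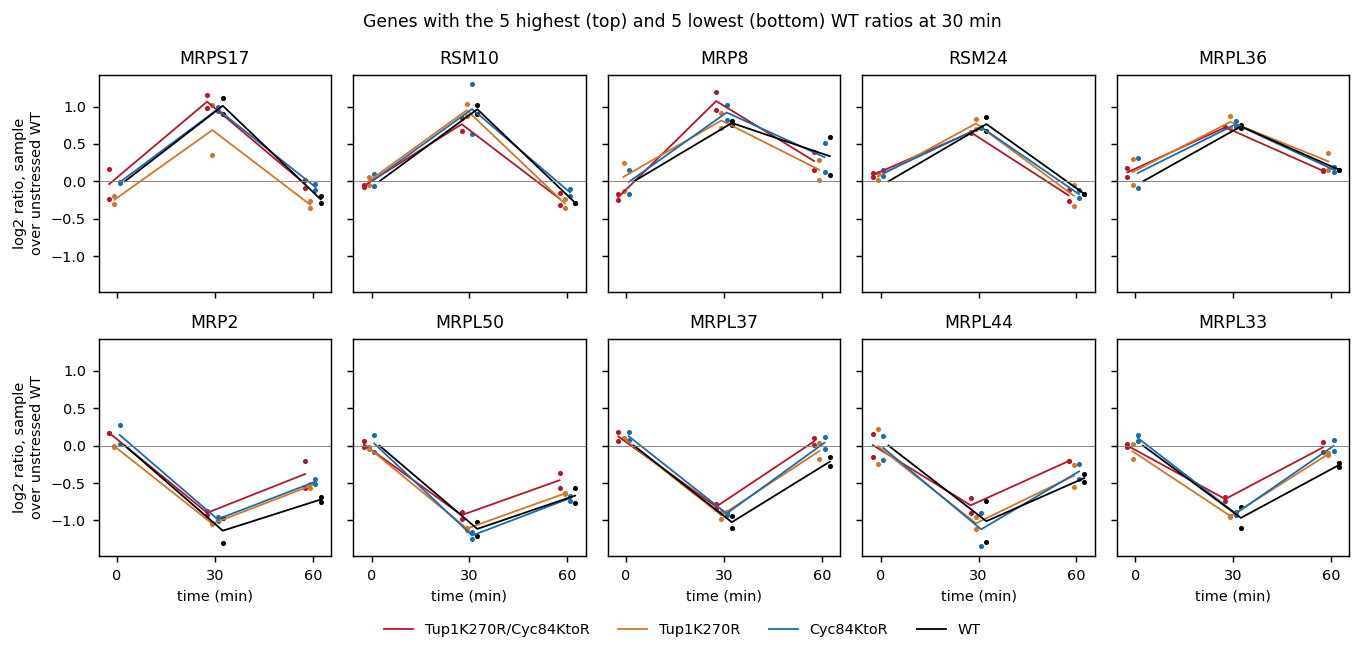
Log2 ratio over unstressed WT cells (y axis) against time in 1.2 M sorbitol (x axis) for the 5 genes highest (top) and the 5 lowest (bottom) in WT cells at 30 min. Points are replicates, shifted sideways by strain, and lines join means; the WT line starts at 0 because unstressed WT cells are the reference. Each gene peaks or dips at 30 min in all 4 strains, with RSM10 between 0.64 and 1.30.

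The mutant effect is the ratio of a mutant over WT cells at the same time. An effect of the substitutions cannot be told apart from one of the CYC8 and TUP1 transcript levels, which differed between isolates. The mutant effect passed the test for 0 of the 66 genes in each of the 9 comparisons (3 mutants at 3 times), also with the replicate as a block. With the slide as a fixed block, MRP8 was lower in Tup1K270R/Cyc84KtoR cells at 0 min (−0.31, adjusted p = 0.0415). The share of all probes called in that fit is not given here. This MRP8 effect was 0.076 on the deposited log ratios, and 0.041 with the dyes of the replicate B array the other way. In the fit without a block, 1.19% and 0.326% of all probes were called higher and lower in Tup1K270R/Cyc84KtoR cells at 0 min. These shares were 0.0163% and 0.0326% at 30 min, and 0.0489% and 0% at 60 min. In Tup1K270R cells they were 0% at each time in both directions. In Cyc84KtoR cells they were 0.163% and 0.131%, 0% and 0.0163%, and 0.0326% and 0.0163% at 0, 30 and 60 min. The means of all 66 genes in the 9 comparisons lay between −0.32 (MRPS17 in Tup1K270R cells at 30 min) and 0.46 (MRPL39 in Tup1K270R/Cyc84KtoR cells at 30 min).

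At an unadjusted p under 0.05, 3 genes were higher and 0 lower in Tup1K270R/Cyc84KtoR cells at 0 min (6.74% and 6.69% of all probes), 2 and 0 at 30 min (3.67% and 3.03%), and 4 and 1 at 60 min (4.39% and 5.22%). In Tup1K270R cells the counts were 0 and 0 at 0 min (2.17% and 1.79%), 2 and 0 at 30 min (1.39% and 1.81%), and 0 and 0 at 60 min (0.473% and 0.604%). In Cyc84KtoR cells they were 3 and 0 (3.54% and 2.94%), 0 and 0 (2.56% and 1.13%), and 3 and 0 (2.9% and 2.58%) at the same times. The largest of these counts was 6.06% of the 66 genes.

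The genes behind these counts were few, and some recurred. In Tup1K270R/Cyc84KtoR cells the higher genes were MRPL39, MRPS9 and MRPL13 at 0 min, MRPL39 and MRPL33 at 30 min, and MRP2, MRPL37, MRPL33 and MRPL20 at 60 min, and the lower one was MRPL32 at 60 min. In Tup1K270R cells they were MRPS28 and MRP7 at 30 min. In Cyc84KtoR cells they were MRPL13, MRPL9 and MRP7 at 0 min and MRPL33, MRPL37 and MRP1 at 60 min.

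**Figure D4:**
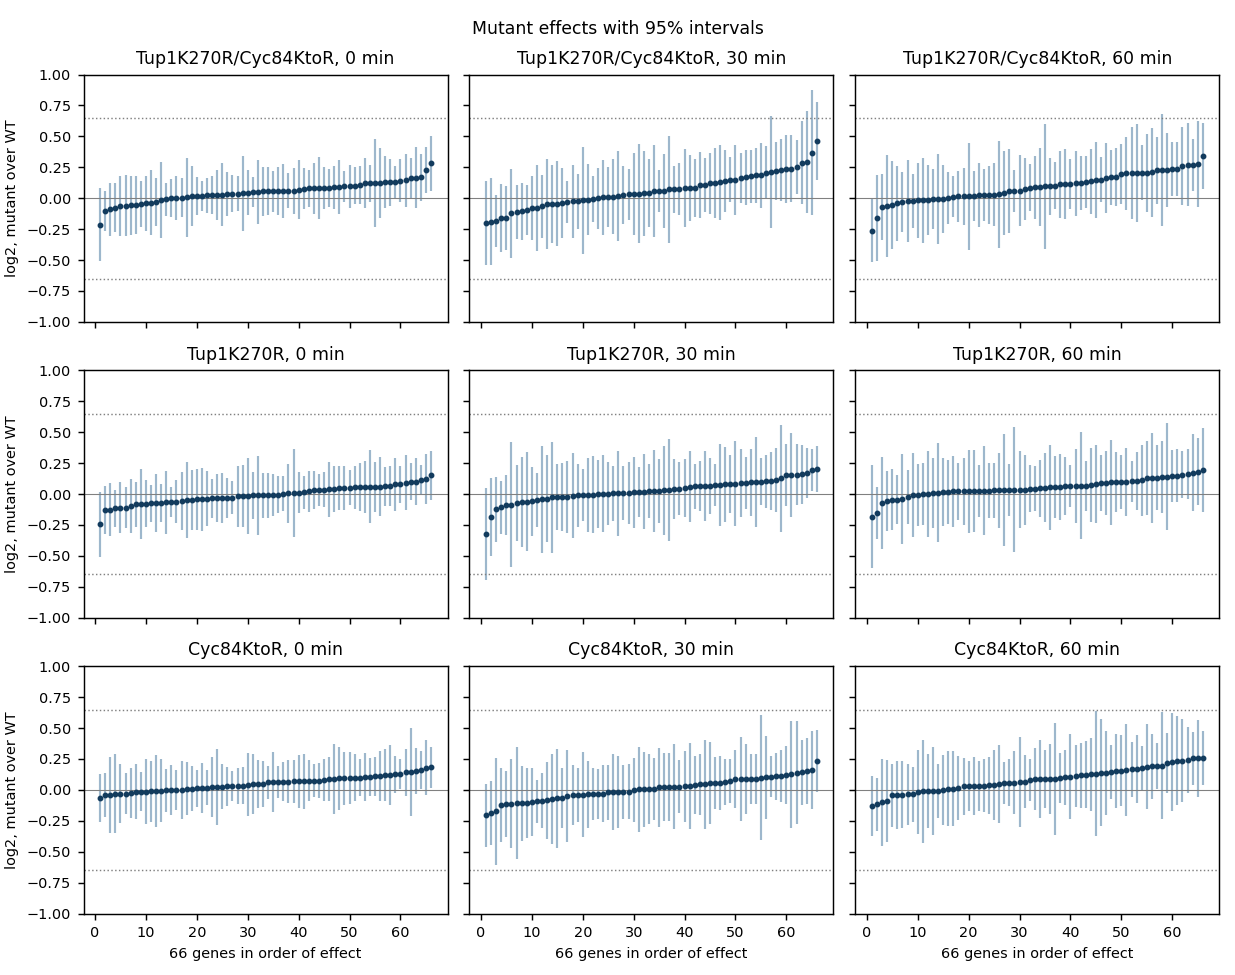
Mutant effect (y axis, log2 of mutant over WT) of the 66 genes in order of size (x axis) for each mutant and time. Points are means of 2 replicates, vertical lines 95% intervals of the limma fit, and dotted lines 0.65 log2 units. All 66 intervals lie within the dotted lines in 6 of the 9 panels, and 65, 65 and 62 do in the others.

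A lack of calls does not show that the strains are alike, and the intervals hold gene by gene and for this normalization only. Some values on the deposited log ratios lay outside them. At 0 min MRPL27 was at 0.46 there in Tup1K270R cells (interval −0.32 to 0.07). MRPL9 was at −0.20 there in Cyc84KtoR cells (interval 0.0087 to 0.317). The 95% interval of the mutant effect stayed within 0.65 log2 units for all 66 genes in each mutant at 0 min, and in Cyc84KtoR cells at 30 and 60 min and Tup1K270R cells at 60 min. It did so for 65 genes in Tup1K270R cells at 30 min, and for 62 and 65 genes in Tup1K270R/Cyc84KtoR cells at 30 and 60 min. The median interval reached 0.19 to either side of its mean at 0 min and 0.27 at 30 and 60 min. The medians of the mutant effect over the 66 genes were 0.06, 0.05 and 0.09 at 0, 30 and 60 min in Tup1K270R/Cyc84KtoR cells, −0.01, 0.02 and 0.04 in Tup1K270R cells, and 0.06, 0.01 and 0.09 in Cyc84KtoR cells.

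Between replicates of a group the median over the 66 genes varied with a pooled SD of 0.048, about the size of most of these medians. In Tup1K270R/Cyc84KtoR cells the mean effect was above 0 for 51, 43 and 51 of the 66 genes at 0, 30 and 60 min (48.9%, 50.9% and 49.2% of all probes). In Tup1K270R cells it was above 0 for 30, 43 and 56 genes (50.5%, 48.8% and 48.3%), and in Cyc84KtoR cells for 50, 36 and 51 genes (49.4%, 50.4% and 50.1%). All mutants at a given time share the WT arrays, so these counts are not independent of each other. With the dyes of the 0 min array of Tup1K270R/Cyc84KtoR replicate B the other way, the median there was −0.01, and in Tup1K270R cells at 60 min it was 0.13 in replicate B and −0.03 in replicate A. The Cyc84KtoR medians also differed between replicates A and B, with 0.08 and 0.03 at 0 min and 0.11 and 0.02 at 60 min.

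The genes at the ends of these distributions are given as values, since none was called. In Tup1K270R/Cyc84KtoR cells the highest at 0 min were MRPL39 (0.28), MRPS9 (0.23) and MRP2 (0.17), and the lowest were MRP8 (−0.21), RSM25 (−0.10) and RSM22 (−0.09). At 30 min the highest were MRPL39 (0.46), MRPL6 (0.37) and MRP8 (0.29), and the lowest RSM10 (−0.20), MRPL16 (−0.19) and RSM28 (−0.18). At 60 min they were MRP2 (0.34), MRP10 (0.28) and MRPL37 (0.27), against MRPL32 (−0.26), MRPL16 (−0.16) and MRPS35 (−0.07).

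MRPL39, the counterpart of bacterial L33, had the largest mean effect of all 9 comparisons. At 30 min it had −0.23 and −0.25 in Tup1K270R/Cyc84KtoR cells, against −0.94 and −0.46 in WT cells (effect 0.46 ± 0.15 SE, unadjusted p = 0.00696, adjusted p = 0.635). The strains did not overlap, but the WT replicates lay further from each other than the mean effect. MRP2 was at −0.20 and −0.56 in Tup1K270R/Cyc84KtoR cells at 60 min, −0.56 and −0.52 in Tup1K270R cells, −0.51 and −0.45 in Cyc84KtoR cells, and −0.69 and −0.75 in WT cells. All 6 mutant values of MRP2 lay above both WT values, but the 3 effects share those WT arrays and are not independent of each other. None of the 3 was called.

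In Tup1K270R cells the highest at 0 min were RSM19 (0.15), MRPL36 (0.12) and MRP7 (0.12), and the lowest MRPS17 (−0.25), MRPL27 (−0.13) and RSM22 (−0.13). At 30 min they were MRPS28 (0.20), MRP7 (0.20) and MRPL1 (0.17), against MRPS17 (−0.32), MRPL25 (−0.18) and MRP49 (−0.12). At 60 min they were MRPL10 (0.19), MRP2 (0.18) and MRPL39 (0.17), against MRP8 (−0.18), MRPL24 (−0.15) and MRPS17 (−0.07). For MRPS17 at 30 min the effect was −0.56 in replicate A and −0.09 in replicate B.

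In Cyc84KtoR cells the highest at 0 min were MRPL13 (0.18), MRPL39 (0.18) and MRPL9 (0.16), and the lowest MRPL27 (−0.07), MRPL32 (−0.04) and MRPL4 (−0.04). At 30 min they were MRP35 (0.23), MRPL39 (0.16) and MRP2 (0.15), against MRPL32 (−0.21), RSM23 (−0.19) and MRPL4 (−0.17). At 60 min they were MRPL33 (0.26), MRPL39 (0.25) and MRPL37 (0.25), against MRP20 (−0.13), MRPL24 (−0.12) and MRPL16 (−0.10). MRPL37 at 60 min was at 0.12 and −0.04 in Cyc84KtoR cells, against −0.27 and −0.16 in WT cells.

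Whether the response to stress differed between mutant and WT cells was tested as the difference of the 2 responses. At 30 and 60 min 0 genes passed in any mutant, beside 0% of all probes in each of the 6 comparisons, and 0 passed with the replicate as a block. At an unadjusted p under 0.05, RSM25 was higher in Tup1K270R/Cyc84KtoR cells at 30 min (0.51 and 0.14 in replicates A and B, mean 0.32, adjusted p = 0.632), and it was the only gene so. The shares of all probes past that p, higher and lower, were 3.57% and 4.27% at 30 min and 1.34% and 1.83% at 60 min in Tup1K270R/Cyc84KtoR cells. They were 0.457% and 0.457%, then 0.261% and 0.457%, in Tup1K270R cells, and 1.27% and 0.555%, then 0.963% and 1.34%, in Cyc84KtoR cells.

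Across the 22 arrays, with each array centred on its median over the 66 genes, MRPS17 (SD 0.56), RSM10 (0.54), MRP8 (0.48), MRPL37 (0.47) and MRP2 (0.43) varied most. MRP13 (0.09), MRPL13 (0.10), MRP7 (0.10), MRPL31 (0.10) and RSM7 (0.10) varied least. MRP7, the counterpart of bacterial L27 at the peptidyl transferase centre, stayed between −0.21 and 0.21 on all arrays. Over the means of the 11 groups the median correlation between pairs of the 66 genes was 0.22, against 0.002 between pairs of all probes. The correlation was above 0 for 55.8% of the pairs of these genes, against 50.1% of all pairs. The groups share reference cultures, so these are descriptions.

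The position of the genes was also examined, by their order in the R64 assembly. For 37 of the genes the next gene upstream is transcribed the other way, so that both start from 1 intergenic stretch, and has a value. At 30 min the WT ratios of gene and neighbour correlated at r = 0.41 over these 37 pairs (Spearman's rho = 0.43), against r = 0.22 over 2770 such pairs of all genes. At 60 min the correlations were 0.12 and 0.21. For the 27 genes whose upstream neighbour runs the same way, r was −0.19 at 30 min, against 0.18 over 2586 such pairs of all genes. None of these differences in r was tested. MRPS17 lies beside GCV2 (0.84 at 30 min), a gene of glycine breakdown, and RSM10 beside ENA1 (1.58), a sodium pump gene with close copies in the genome. MRPS16 lies beside RRP12 (−1.99) and MRPL6 beside IMP3 (−1.42), both of which act in making cytosolic ribosomes. These 4 pairs were chosen after their values were seen, and there are others that differ in sign, such as MRPL16 (0.57) beside URA7 (−1.22).

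Other genes of mitochondrial translation were described from lists of known members. Their counts stand beside the same shares of all probes, 34.7% higher and 32.7% lower at 30 min and 24.1% higher and 22.2% lower at 60 min, and none was tested against them. Of 10 further mitochondrial ribosomal proteins with other names, 6 were lower and 1 was higher in WT cells at 30 min (median −0.46), and 7 were lower and 0 higher at 60 min (median −0.29). IMG1 had the lowest value at 30 min (−1.35) and PET123 the highest (0.95). Of 8 mitochondrial translation factors, 4 were lower and 0 higher at 30 min, and 2 and 1 at 60 min. The release factor gene MRF1 was at −1.04 at 30 min and 0.16 at 60 min.

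The lists of partners of the mitochondrial ribosome were mixed as well. Of 13 mitochondrial aminoacyl-tRNA synthetases, 7 were higher and 2 lower at 30 min (median 0.21), and 2 and 6 at 60 min (median −0.24). Of 13 translational activators of single mitochondrial messages, 8 were higher and 3 lower at 30 min (median 0.40), and 0 and 4 at 60 min (median −0.18). Of 11 genes of ribosome assembly and rRNA modification 10 were tested, with 3 higher and 6 lower at 30 min and 2 and 1 at 60 min. PUF3, an RNA-binding protein known to bind messages of this class, had −0.29 and 0.10 at 30 min (mean −0.09, adjusted p = 0.508) and 0.70 and 0.67 at 60 min (mean 0.69, adjusted p = 0.000417).

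The proteins of the cytosolic ribosome and of the respiratory chain were set beside the mitochondrial ribosome. Over all probes 34.7% were higher and 32.7% lower at 30 min, and 24.1% and 22.2% at 60 min. Neither list was tested against these shares. Of 138 cytosolic ribosomal protein genes, 72 were lower and 7 higher in WT cells at 30 min (median −0.29, lowest −1.39, highest 0.58), and 78 and 4 at 60 min (median −0.32). For them the median thus lay below 0 at both times. Near-identical pairs of cytosolic ribosomal protein genes can share signal on these probes. Of 36 genes of the respiratory chain and ATP synthase, 15 were higher and 7 lower at 30 min (median 0.11), and 6 and 9 at 60 min (median −0.10). The medians of the mutant effect for these 36 genes were 0.23, 0.16 and 0.28 at 0, 30 and 60 min in Tup1K270R/Cyc84KtoR cells, −0.18, −0.21 and −0.06 in Tup1K270R cells, and 0.21, 0.09 and 0.24 in Cyc84KtoR cells. The genes of the mitochondrial ribosome had medians no further from 0 than 0.09 in the same comparisons. The contrast between the lists was not tested. In Cyc84KtoR cells at 0 min replicates A and B lay apart for COR1 (0.41 and 0.005) and close for ATP14 (0.25 and 0.26).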

How the data were processed

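RNA of 4 yeast strains was measured on 23 two-color Agilent arrays with 6256 yeast probes. The authors extracted the spot values by Feature Extraction (version 10.5.1.1), and the deposited intensities used here are net of the background it estimated. Its deposited log10 ratios (red over green) and the deposited series matrix, which holds those ratios as log2 values with the sign turned on the replicate A and wt x wt arrays, served as alternatives, because the software had detrended only 1 channel on many arrays.

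Intensities were normalized by loess within each array, averaged over spots without outlier spots, and turned to sample over reference. Between 95% and 98.5% of spots per array passed the software's background test, and 0 were saturated. Probes with a value on all arrays were kept (6180), less 51 of the region YDR211W to YDR261C. Array names were matched to R64 names for 5756 probes. No sequences were used. The model was fitted with limma's lmFit and eBayes (limma version 3.58.1, R version 4.3.3, data.table version 1.17.8) to 22 arrays in 11 groups without a replicate term, with Benjamini-Hochberg adjustment at 0.05. Figures used Python 3.11.15 (numpy 2.4.6, pandas 2.3.3, matplotlib 3.10.9).

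The fit was tested on simulated data of 6129 probes: of 200 changed by 1 log2 unit at 30 min in WT cells it found 190, and of 200 changed by 2 log2 units it found 200, each time beside 8 unchanged probes. The simulated noise was independent between arrays, without a shared reference or dye. Changes as small as the mutant effects were not simulated. Replicates with the same letter share a reference culture and dye, as the labels give it. Their deviations from group means correlated at 0.089 to 0.679 in 55 pairs of groups, over 0.1 in 54.

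Genes were named by rank: the 5 highest and lowest in each WT comparison, the 3 highest and lowest in each mutant effect, called genes where 10 or fewer, MRP8, the 5 most and least variable, and PUF3. Genes named beyond these were chosen after their values were seen. The genes and lists were chosen with earlier results of these data known. The cell type was checked by MATa and MATalpha genes: 6 of 6 and 2 of 4 were well above background on all arrays. In WT cells 0 of 6 MATa genes were higher and 3 lower at 30 min and 2 and 1 at 60 min, and 0 of 4 MATalpha genes were higher with 2 lower at 30 min and 3 at 60 min. Alternatives were the deposited and series matrix ratios, normexp (offset 50) with loess, removal of a loess surface (span 0.3), only probes well above background on all arrays, each replicate left out, replicate or slide (random, correlation 0.308, or fixed) as a block, the region kept in, other readings of the labels and other cutoffs.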

Additional observations from a re-analysis of the deposited data

How the results depend on the processing

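In the WT comparisons the 5 highest and 5 lowest genes and MRP8 kept their direction under every alternative; PUF3, with opposite signs in its replicates at 30 min, was not among the genes repeated. On the deposited log ratios, and on the series matrix values alike, 5 genes were higher and 16 lower at 30 min (median −0.16), 0 and 5 at 60 min, and 0 and 2 at 60 against 30 min (median −0.0165). Of all 6201 probes, the deposited log ratios called 1117 and 1202, 440 and 334, and 460 and 379 in turn. With the replicate block on top, an alternative chosen after seeing the data, 9 were higher at 30 min (median −0.16), 0 and 5 higher and lower at 60 min, and 2 and 5 at 60 against 30 min (median −0.0165). Removal of a loess surface gave medians of −0.22 at 30 min and −0.26 at 60 min. At 60 min 4 genes were higher with the replicate block (30.5% of all probes in that fit), 3 with slide as a random block and 4 with slide fixed. The replicate block, which pairs arrays by replicate and dye, gave 25 lower at 60 against 30 min (33.7% of all probes). It changed no other named call than those given with the results. With 1 replicate left out, the median at 30 min ranged from −0.0875 to −0.0304, 0 to 2 genes were higher and 12 to 13 lower at 60 min, and 4 to 9 were higher and 7 to 13 lower at 60 against 30 min (median −0.14 to −0.0029). Left out in turn, the replicates gave medians of −0.0289 to 0.13 for the Tup1K270R effect at 60 min. Exchanging the 30 and 60 min arrays of the double mutant's replicate B, which moves no WT array, gave 13 lower at 60 min and 0 and 0 at 60 against 30 min. With both replicates required past the cutoff, 7 were lower at 30 min, 1 at 60 min, and 1 higher and 4 lower at 60 against 30 min. Past 3 SD of wt x wt, 8 were lower at 30 min and 1 at 60 min, and on the deposited log ratios 1 passed 0.65 downward at 60 min and 4 upward at 60 against 30 min. Where no share of all probes stands beside a count, that count does not set these genes apart from the whole array. The cause of these differences was not tested.

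The named mutant effects, of which none was called as reported, kept their sign in 546 repeats under other alternatives with 1 more called, and turned it in 47. On the deposited and series matrix ratios the Tup1K270R effect was −0.023 for MRP7, 0.053 for RSM22 and 0.46 for MRPL27 at 0 min, −0.037 for MRPL1 at 30 min, and −0.040 for MRPL39 and 0.19 for MRPL24 at 60 min. The Cyc84KtoR effect was −0.0045 for MRPL39, −0.20 for MRPL9 and 0.31 for MRPL27 at 0 min, −0.023 for MRP2 and 0.065 for MRPL4 at 30 min, and −0.013 for MRPL39, −0.011 for MRPL37, 0.16 for MRPL16 and 0.12 for MRPL24 at 60 min. The Tup1K270R/Cyc84KtoR effect was 0.076 for MRP8 at 0 min, 0.025 for RSM10 at 30 min and 0.16 for MRPL16 at 60 min. Removal of a surface gave 0.041 for MRPL27, and the slide 0.027 (random) and 0.060 (fixed) for MRPL4, both for Cyc84KtoR at 0 min, and 1 gene was called in Tup1K270R/Cyc84KtoR cells at 0 min with the slide fixed. With the dyes of the double mutant's 0 min replicate B array the other way, the median there was −0.01, and MRPL39 was at −0.047, MRPS9 at −0.056, MRP2 at −0.0031, RSM22 at 0.032 and MRP8 at 0.041. With its later arrays exchanged, MRP8 was at −0.11 at 30 min, and MRPL37 at −0.12 and MRPS35 at 0.27 at 60 min. Leaving out a replicate also turned signs. In Tup1K270R cells MRPL36 at 0 min ranged from −0.048 to 0.29 and MRPL39 at 60 min from −0.021 to 0.37. In Cyc84KtoR cells at 0 min MRPL4 ranged from −0.13 to 0.050, MRPL32 from −0.17 to 0.089 and MRPL27 from −0.27 to 0.13. At 30 min MRPL39 ranged from −0.043 to 0.36 and MRP2 from −0.046 to 0.35, and at 60 min MRPL24 from −0.28 to 0.048 and MRP20 from −0.26 to 0.0063.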

Other observations

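MRPL7, the counterpart of bacterial L5, met the naming rule but lies in the region that was left out. In Tup1K270R cells of replicate A it had ratios of −0.96, −1.45 and −1.43 over unstressed WT at 0, 30 and 60 min, while replicate B had 0.12, −0.25 and −0.23. WT cells had −0.47 and −0.40 at 30 min and −0.31 and −0.33 at 60 min in replicates A and B. The methods describe expression of the region as increased in that isolate. The direction measured for MRPL7 is the opposite, and the other genes of the region are not described here. On the same Tup1K270R arrays of replicate A at 30 and 60 min, 15 of 15 osmotic stress genes were above 0.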
